A study of Saccharomyces cerevisiae with 24 samples.

Results

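Expression of 37 peroxisome and fatty acid oxidation genes was followed in *Saccharomyces cerevisiae* before and after sulfite was added. The genes were chosen by name as the 18 *PEX* genes (peroxins) on the array list and 19 genes of fatty acid oxidation, activation, transport and regulation, and they are 37 of the 4073 genes with a symbol. All 37 had a value on all 24 arrays and all were among the 4071 genes tested, each read by 2 features. *PEX* genes outside these 18 were not analysed here.

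In budding yeast, fatty acids are broken down by beta-oxidation in peroxisomes and not in mitochondria. Peroxins build the organelle and carry folded enzymes across its membrane: soluble receptors bind an enzyme in the cytosol, dock at the membrane, release it inside and are sent back by ubiquitination. Most genes of the pathway are known to be repressed on glucose and induced by oleate through the transcription factors Oaf1 and Pip2.

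The study compared alleles of *FZF1*, a zinc finger transcription factor that activates the sulfite pump gene *SSU1*. All strains shared 1 background (S288c, *Mat a*, mutant in *ura3*) with the native *FZF1* replaced by a drug resistance cassette, and carried 1 of 4 alleles integrated at *ura3* together with the *URA3* plasmid pRS306. Of the alleles, 1 was the whole *S. cerevisiae* gene, 1 was that of *S. paradoxus* (together called the full length alleles), and 2 were chimeras, C.P. with the *S. cerevisiae* 5′ noncoding region before the *S. paradoxus* coding region, and P.C. with the reverse. Cells grew in rich glucose medium made acidic with tartaric acid and were sampled at 0 min and at 15 min after sodium sulfite was added to 1 mM, which gives 8 groups of 3 arrays. No culture without sulfite was sampled at 15 min, so that time and sulfite cannot be told apart in any difference between 0 and 15 min. The alleles sit outside the native *FZF1* locus, which limits these strains as a model of the species.

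Each array set 1 sample against a pool of all RNA samples, and the values give its log2 ratio to that pool, averaged over the features of a gene and centred on the median of all genes. A value of 0 is therefore the ratio to the pool of the median gene on that array, and a rise or fall is relative to that gene. Levels cannot be set against each other between genes. The replicates were independent according to the study's methods, which also state that a culture was sampled at successive times. Arrays at 0 and 15 min can thus come from the same culture. The labels do not say that equal replicate numbers mark it. In each group the sample carried the dye Cy3 on 2 arrays and Cy5 on 1 array. As a check of the labels, the log2 ratio of *FZF1* itself was −3.63 in replicate 2 labelled *S. cerevisiae* at 0 min, which lay between the −5.57 and −2.47 that bound the 12 arrays of alleles with an *S. paradoxus* coding region and below the other 11 arrays of alleles with an *S. cerevisiae* coding region (−0.11 to 2.21). By *FZF1*, this array therefore went against its label, and values without it are given for the main counts and contrasts that rest on it. *URA3*, on the plasmid, read 1.203 on it, against −1.969 and −1.885 in its group. *SSU1* read −1.377 on it, within the range of C.P. at 0 min (−1.66 to −1.307). That value also lay just above the range of P.C. at 0 min (−1.539 to −1.384), so that *SSU1* does not tell these alleles apart here. *URA3* also stood apart in C.P. replicate 3 at 0 min (1.343, others −1.619 and −0.661) and 15 min (highest of 24 arrays). So it did in P.C. replicate 3 at 15 min (1.169, others −0.573 and −0.008). P.C. replicate 2 at 0 min did too (0.011, others −1.932 and −1.903). The cause was not tested. Mating type genes were also read: 5 of 5 a-specific and 0 of 4 alpha-specific genes fell after sulfite (39.6% of all genes). Of the alpha-specific genes 2 rose (39.5% of all genes), and 0 of 9 passed the test between alleles (0.0737% of all genes). Ratios to a pool show no level, so that these changes over time cannot check the mating type. Only a difference between strains could show.

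The genes of fatty acid oxidation and of the import receptors were mostly higher 15 min after sulfite than before it, while *FAA4*, *PEX11* and *PEX25* were lower. The mean response, the value at 15 min minus that at 0 min averaged over the 4 alleles, was past the test (limma, Benjamini-Hochberg adjusted p under 0.05) and above 0 in 29 of the 37 genes, where 39.5% of all genes tested rose. It was past the test and below 0 in 3 genes, where 39.6% of all genes fell. The median response of the 37 genes was 0.76 on the log2 scale, and that of all genes tested was 0.01. Responses of at least 2-fold were found in 13 genes that rose (9.87% of all genes) and in 1 that fell (10% of all genes). In 21 genes all 12 arrays at 15 min lay above all 12 arrays at 0 min (19.2% of all genes), and in 1 gene all lay below (19.5% of all genes). The role groups below are small, and counts in them are to be read against the 39.5% of all genes that rose and 39.6% that fell.

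**Figure D1:**
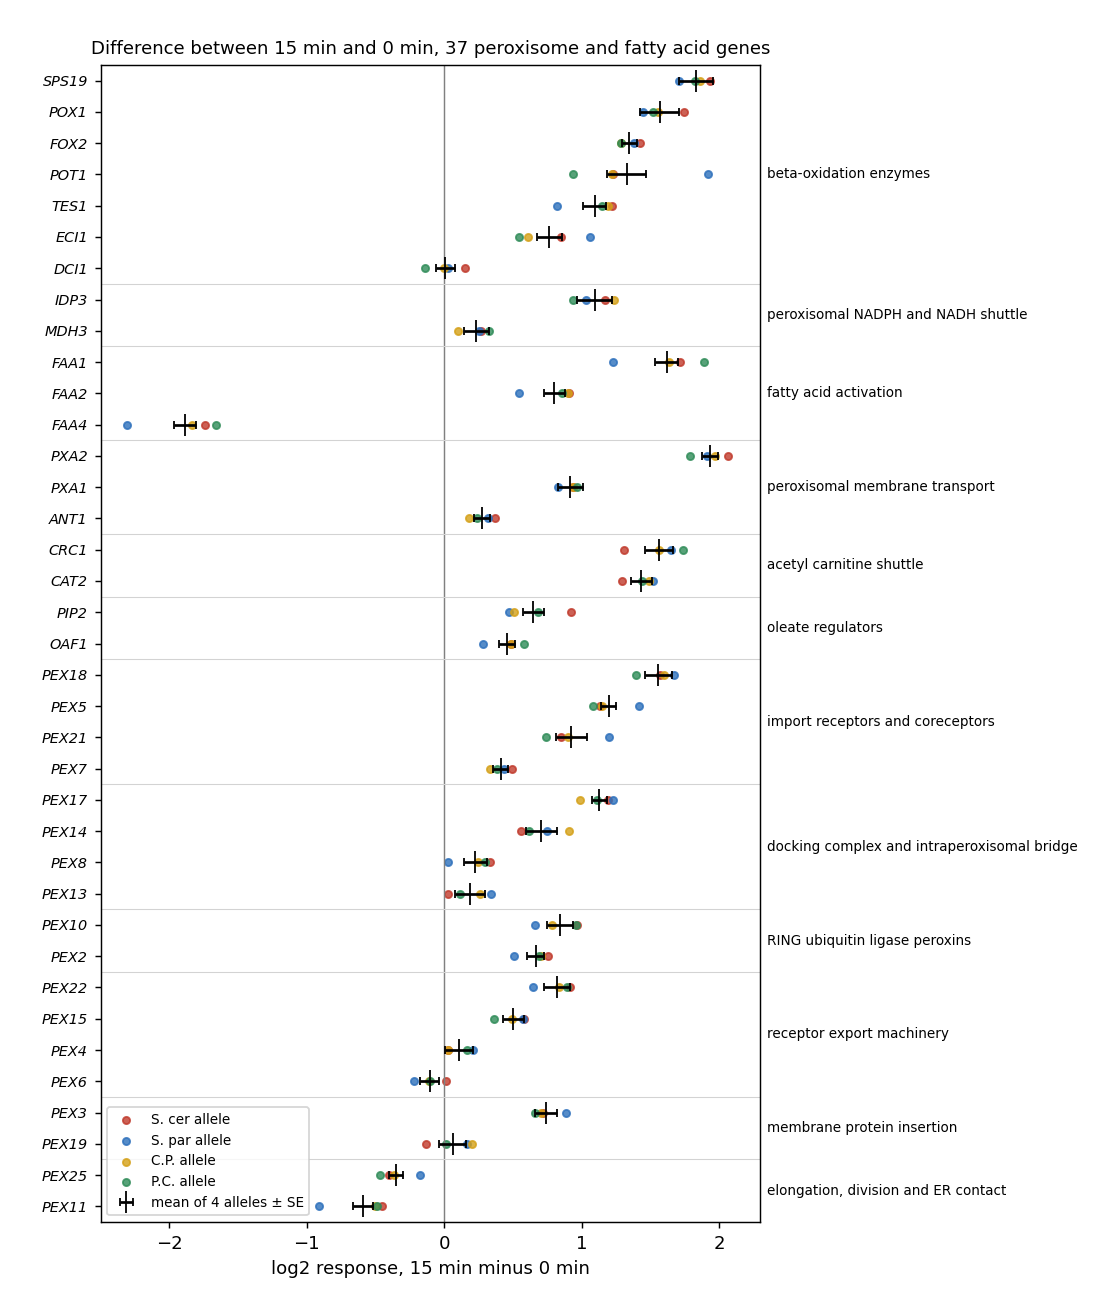
Response of each of the 37 genes (log2, 15 min minus 0 min) by role, with the mean of 4 alleles and its SE from limma in black and the response with each allele as a coloured point. The means run from −1.88 (*FAA4*) to 1.94 (*PXA2*), and most enzymes, transporters and import receptors sit to the right of 0.

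Of the 7 beta-oxidation enzymes, 6 rose and the median response was 1.33. *POX1* encodes the acyl-CoA oxidase that carries out the first step. Its lowest, median and highest log2 ratios were −1.58, −0.93 and −0.51 at 0 min and −0.24, 0.59 and 1.25 at 15 min. No array at 15 min fell within the range of those at 0 min. The response was 1.57 ± 0.141 (SE), or 2.96-fold, with a limma adjusted p of 2.295e-09. *FOX2*, the multifunctional enzyme of the next steps, ran from −1.02 through a median of −0.81 to −0.51 at 0 min, and from 0.43 through 0.60 to 0.71 at 15 min. The arrays of each time were close together and the times lay apart. *FOX2* rose by 1.35 ± 0.0547 (SE), 2.54-fold (adjusted p = 4.008e-15).

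The last step is made by the thiolase Pot1. *POT1* read −1.51, −1.10 and −0.30 (lowest, median, highest) at 0 min and −0.53, 0.40 and 0.68 at 15 min. Here 1 array at 15 min, P.C. replicate 3, fell inside the range at 0 min. The response was 1.33 ± 0.140 (SE), 2.51-fold (adjusted p = 2.566e-08).

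*SPS19* encodes the peroxisomal dienoyl-CoA reductase, an auxiliary enzyme for unsaturated fatty acids. With the *S. cerevisiae* allele its replicates read −1.78, −1.77 and −1.05 at 0 min and 0.36, 0.34 and 0.52 at 15 min. Under the *S. paradoxus* allele they read −1.53, −1.52 and −0.62, and then 0.31, 0.34 and 0.81. In both alleles replicate 3, the array with the sample in Cy5, was the highest at each time, and the times did not overlap. Over all arrays *SPS19* ran from −1.78 to −0.62 at 0 min and from 0.31 to 0.81 at 15 min, and its response was 1.83 ± 0.123 (SE), 3.57-fold (adjusted p = 1.784e-11).

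*TES1*, an acyl-CoA thioesterase, rose by 1.09 ± 0.0872 (SE), and *ECI1*, an enoyl-CoA isomerase, by 0.76 ± 0.0913 (SE). *DCI1*, which encodes a protein related to Eci1, was the one enzyme of this group not past the test. Its arrays ran from −0.22 through a median of −0.01 to 0.10 at 0 min, and from −0.40 through −0.01 to 0.22 at 15 min. The ranges overlapped almost fully, and the response of 0.01 ± 0.0686 (SE) had an adjusted p of 0.9082. Its 2 features also agreed least among the 37 genes, with a correlation of 0.252 over the 24 arrays against a median of 0.923, as a description in which all features share the same arrays.

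**Figure D2:**
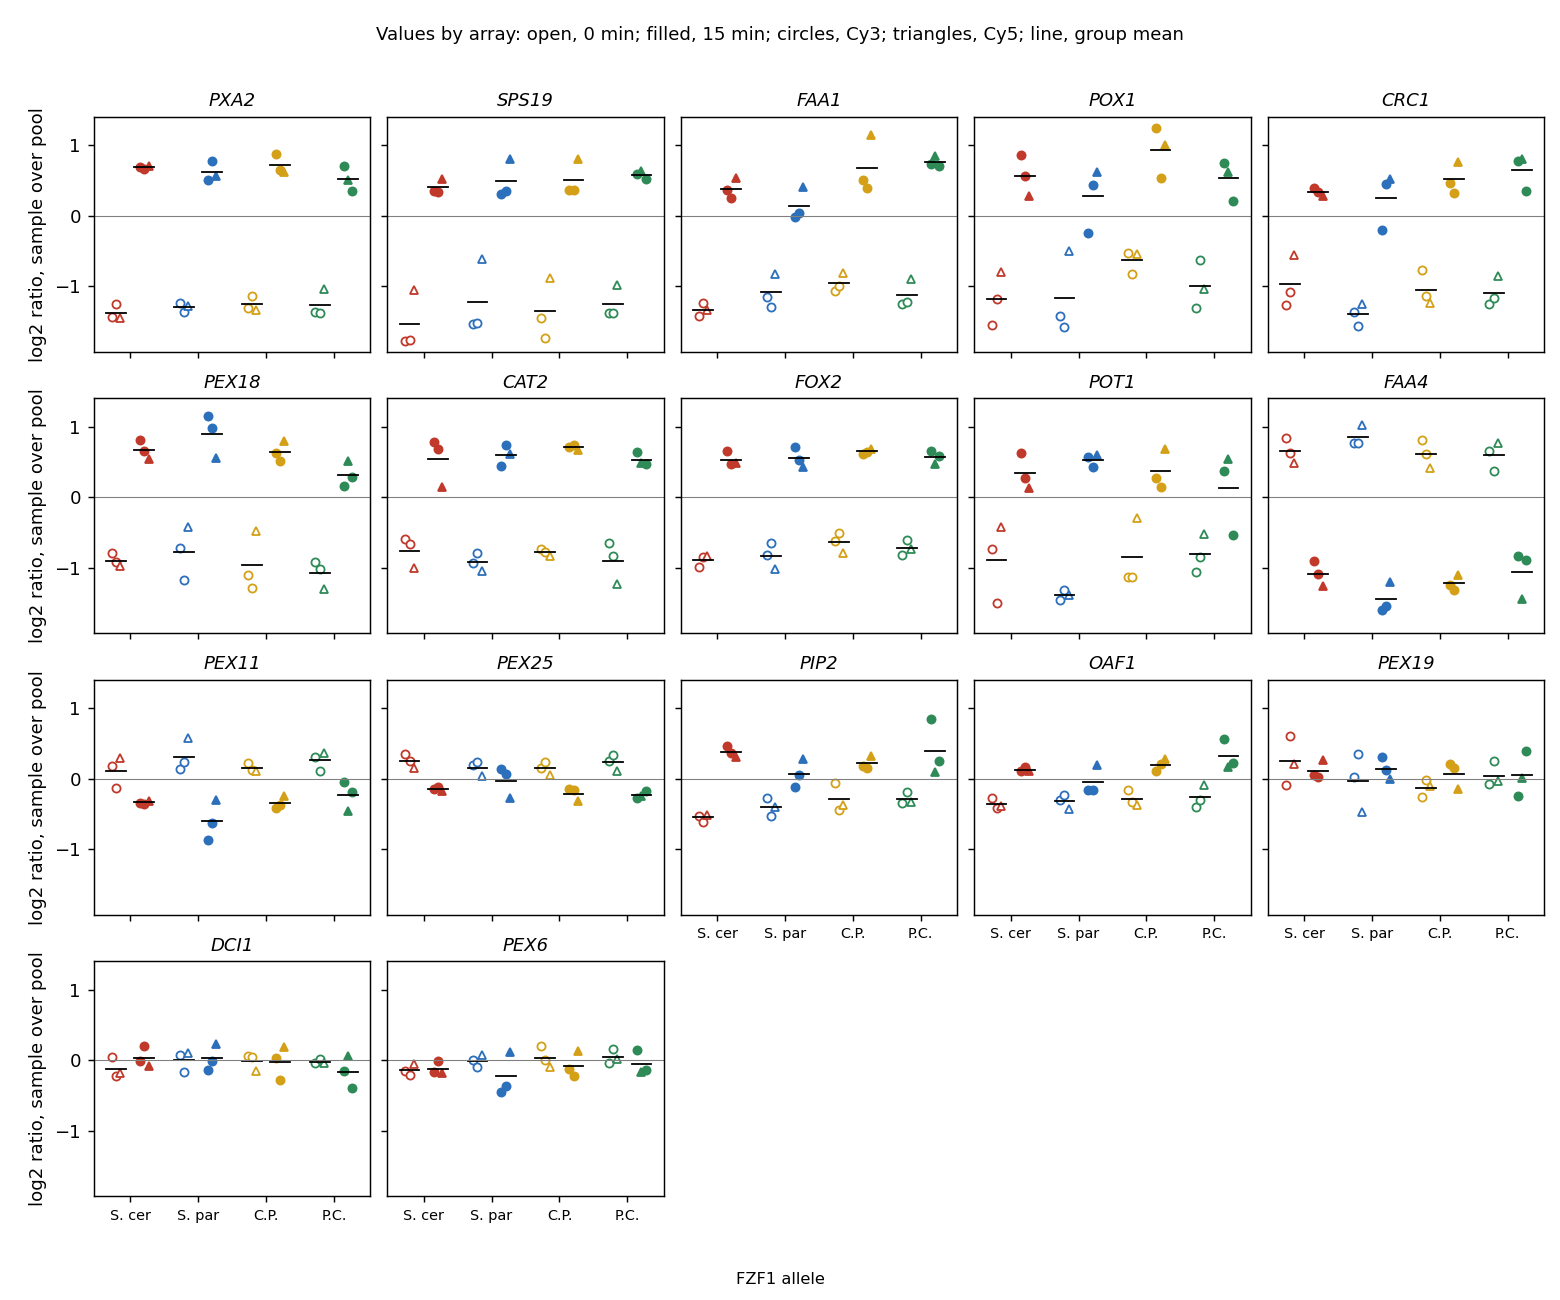
Log2 ratio of sample over pool on each of the 24 arrays for 17 of the 37 genes (open, 0 min; filled, 15 min; circles, Cy3; triangles, Cy5; lines, means of 3 arrays). The first 8 panels show genes with no overlap between times, *POT1* has 1 array at 15 min within the range at 0 min, and *FAA4* lies the other way.

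The genes that supply cofactors to the matrix also rose, by unequal amounts. *IDP3* encodes the peroxisomal isocitrate dehydrogenase that makes NADPH for the Sps19 reaction. It ran from −0.91 to −0.11 at 0 min and from −0.01 to 0.94 at 15 min. The ranges came close without overlap, and the response was 1.09 ± 0.128 (SE). *MDH3*, the peroxisomal malate dehydrogenase that reoxidises NADH, rose by 0.24 ± 0.0936 (SE, adjusted p = 0.02721) and was past the test with none of the alleles taken singly.

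The 3 acyl-CoA synthetase genes moved in opposite directions. *FAA1* and *FAA4* encode the synthetases that activate most long chain fatty acids taken up by the cell, and *FAA2* the peroxisomal enzyme for medium chains. With the *S. cerevisiae* allele, *FAA1* read −1.42, −1.24 and −1.34 at 0 min and 0.37, 0.25 and 0.54 at 15 min. With the *S. paradoxus* allele it read −1.15, −1.29 and −0.83, and then −0.03, 0.04 and 0.40. The values at 15 min were lower with the *S. paradoxus* allele on 2 of its 3 arrays, and no array overlapped between times. With the C.P. chimera *FAA1* read from −1.06 to −0.81 at 0 min and 0.50, 0.39 and 1.14 at 15 min. With the P.C. chimera it read −1.26, −1.23 and −0.90, and then 0.74, 0.85 and 0.70. The 15 min values of the chimeras included the highest of all. *FAA1* rose by 1.62 ± 0.0847 (SE), 3.07-fold (adjusted p = 2.697e-13).

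*FAA4* showed the reverse order of times. With the *S. cerevisiae* allele it read 0.84, 0.63 and 0.48 at 0 min and −0.91, −1.10 and −1.26 at 15 min. With the *S. paradoxus* allele it read 0.77, 0.77 and 1.03, and then −1.60, −1.54 and −1.21. The latter pair of groups held the highest value at 0 min and the lowest at 15 min. With the C.P. chimera *FAA4* read 0.82, 0.62 and 0.41 at 0 min and −1.24, −1.31 and −1.11 at 15 min. With the P.C. chimera it read 0.66, 0.37 and 0.77, and then −0.83, −1.45 and −0.89. Every array at 15 min lay below every array at 0 min, which held for no other of the 37 genes. *FAA4* fell by 1.88 on the log2 scale (SE 0.0823), 3.69-fold (adjusted p = 1.269e-14). *FAA2* rose by 0.80 ± 0.0742 (SE).

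All 3 genes of transport across the peroxisomal membrane rose. *PXA2* and *PXA1* encode the subunits of the ABC transporter for long chain acyl-CoA, and *PXA2* had the highest response of the 37 genes. Its replicates with the *S. cerevisiae* allele were −1.44, −1.25 and −1.45 at 0 min and 0.69, 0.66 and 0.70 at 15 min. Those with *S. paradoxus* were −1.24, −1.37 and −1.28, and then 0.50, 0.78 and 0.57. The chimeras gave like values, from −1.38 to −1.04 at 0 min and from 0.35 to 0.88 at 15 min, so that the times lay far apart in every group. *PXA2* rose by 1.94 ± 0.0584 (SE), 3.83-fold (adjusted p = 5.393e-17). *PXA1*, its partner, rose by 0.92 ± 0.0910 (SE), from a range of −0.88 to −0.28 to one of −0.02 to 0.73. *ANT1*, the adenine nucleotide carrier of the peroxisome, rose by 0.28 ± 0.0595 (SE), with overlapping ranges (−0.34 to −0.02 at 0 min, −0.16 to 0.30 at 15 min).

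The genes of the acetyl carnitine shuttle, which moves the product of beta-oxidation to mitochondria, rose by similar amounts. *CRC1*, the mitochondrial carnitine carrier, had lowest, median and highest values of −1.57, −1.20 and −0.56 at 0 min and −0.20, 0.42 and 0.81 at 15 min. *CAT2*, the carnitine acetyltransferase of peroxisomes and mitochondria, had −1.23, −0.81 and −0.60, and then 0.14, 0.65 and 0.78. Neither gene overlapped between times. Their responses were 1.56 ± 0.101 (SE, adjusted p = 8.576e-12) for *CRC1* and 1.44 ± 0.0782 (SE, adjusted p = 5.224e-13) for *CAT2*.

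Both oleate regulators rose, by less than most of the enzymes. *PIP2* ran from −0.61 through −0.39 to −0.06 at 0 min and from −0.12 through 0.26 to 0.85 at 15 min. *OAF1* ran from −0.43 through −0.32 to −0.09, and then from −0.16 through 0.17 to 0.57. In both genes the lowest arrays at 15 min reached into the range at 0 min. *PIP2* rose by 0.65 ± 0.0757 (SE, adjusted p = 1.19e-07) and *OAF1* by 0.46 ± 0.0596 (SE, adjusted p = 5.511e-07).

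Several of these genes belong to pairs of related or partner proteins, and the members of a pair differed in response. The difference of the responses was 3.50 ± 0.107 (SE) for *FAA1* minus *FAA4*, 1.02 ± 0.125 (SE) for *PXA2* minus *PXA1* and 0.76 ± 0.130 (SE) for *ECI1* minus *DCI1*. It was 0.63 ± 0.135 (SE) for the coreceptors *PEX18* minus *PEX21* and 0.19 ± 0.0540 (SE) for *PIP2* minus *OAF1*. These pairs were picked with the responses known, so that the differences are a description with no test. Probe sequences were not used here, and whether related genes share signal on the array was not tested.

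**Figure D3:**
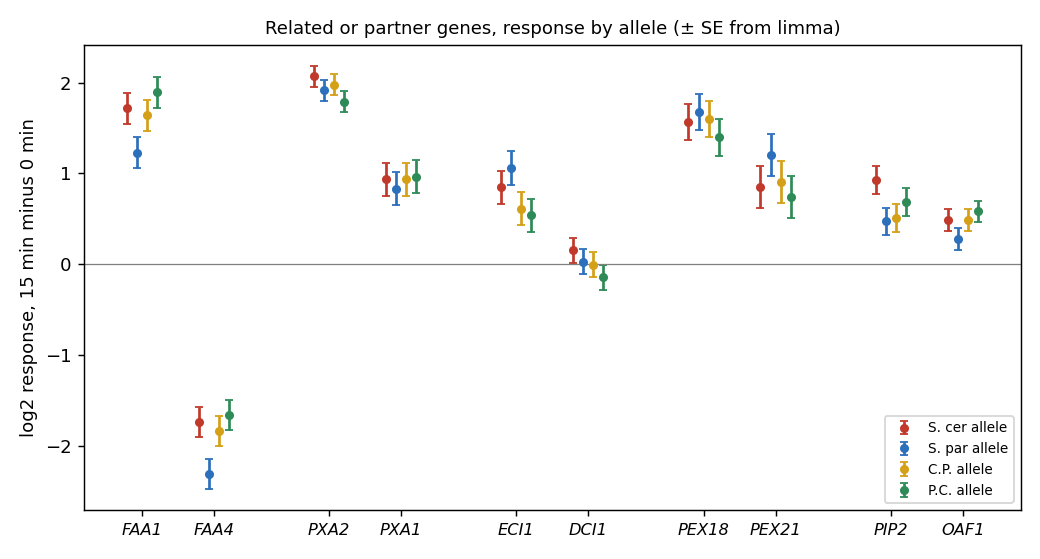
Response (log2, 15 min minus 0 min, ± SE from limma) with each of the 4 alleles for 5 pairs of related or partner genes. *FAA1* and *FAA4* lie on opposite sides of 0 with every allele, while *PIP2* and *OAF1* lie close together.

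Among the 18 peroxins, 12 rose and 2 fell, where 39.5% and 39.6% of all genes did, with a median response of 0.58. The other 4 were not past the test, as were 851 of all 4071 genes. The import receptors and coreceptors rose in 4 of 4 genes, with a median of 1.06. *PEX18*, a coreceptor that works with Pex7, read −0.80, −0.92 and −0.98 at 0 min with the *S. cerevisiae* allele and 0.81, 0.65 and 0.54 at 15 min. With the *S. paradoxus* allele it read −0.73, −1.18 and −0.42, and then 1.16, 0.98 and 0.55. The times did not overlap with any allele, and the lowest value at 15 min came from the P.C. chimera (0.16, 0.52 and 0.28). *PEX18* rose by 1.56 ± 0.100 (SE), 2.95-fold (adjusted p = 8.597e-12).

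*PEX5* encodes the receptor for enzymes with a C-terminal targeting signal, which most matrix enzymes carry. It ran from −0.84 through −0.77 to −0.55 at 0 min and from 0.20 through 0.45 to 0.77 at 15 min. The ranges were narrow and apart, and the response was 1.20 ± 0.0557 (SE), 2.29-fold. *PEX21*, a coreceptor related to *PEX18*, rose by 0.92 ± 0.114 (SE). *PEX7*, the receptor for the N-terminal signal that Pot1 carries, rose by 0.41 ± 0.0552 (SE) and had no overlap between times either (−0.47 to −0.04, and 0.03 to 0.31).

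The docking complex at the membrane and Pex8, which links it to the machinery inside, gave 3 of 4 genes that rose. *PEX17* rose by 1.13 ± 0.0555 (SE), from −0.83 to −0.50 at 0 min to a range of 0.27 to 0.71. *PEX14*, the first docking site of the receptors, rose by 0.71 ± 0.112 (SE), with overlapping ranges (−0.57 to 0.28, and −0.11 to 0.94). *PEX8* rose by 0.23 ± 0.0818 (SE), past the test in the mean of the alleles and with none of them singly. *PEX13*, another docking protein, had a response of 0.19 ± 0.108 (SE, adjusted p = 0.1215).

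The RING peroxins *PEX10* and *PEX2*, subunits of the ubiquitin ligase that marks receptors for recycling, rose by 0.84 ± 0.0966 (SE) and 0.66 ± 0.0601 (SE), each with no overlap between times. The export machinery that pulls receptors back to the cytosol was split. *PEX22*, which anchors the ubiquitin conjugating enzyme Pex4, rose by 0.82 ± 0.0943 (SE), and *PEX15*, the membrane anchor of the ATPase Pex6, rose by 0.50 ± 0.0752 (SE). The enzymes they anchor were not past the test: *PEX4* had a response of 0.11 ± 0.102 (SE, adjusted p = 0.3337). *PEX6* ran from −0.21 through −0.02 to 0.19 at 0 min and from −0.45 through −0.16 to 0.14 at 15 min. These ranges overlapped, and the response was −0.11 ± 0.0673 (SE, adjusted p = 0.1589).

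Pex3 and Pex19 insert proteins into the peroxisomal membrane. *PEX3* rose by 0.74 ± 0.0816 (SE), with ranges of −0.68 to −0.04 and 0.10 to 0.78. *PEX19* ran from −0.47 through −0.03 to 0.61 at 0 min and from −0.24 through 0.09 to 0.39 at 15 min. The range at 15 min lay inside that at 0 min, and the response was 0.06 ± 0.0987 (SE, adjusted p = 0.5691).

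The peroxins that fell were *PEX11* and *PEX25*. They were the only 2 tested of 10 genes listed for elongation, division and ER contact of the organelle, so that they do not describe that group. *PEX11*, which promotes peroxisome proliferation, read 0.18, −0.13 and 0.29 at 0 min with the *S. cerevisiae* allele and −0.34, −0.35 and −0.32 at 15 min. Its *S. paradoxus* replicates read 0.13, 0.23 and 0.57, and then −0.87, −0.63 and −0.30. Within each allele the times did not overlap, and over all 24 arrays a single array at 0 min, the one labelled *S. cerevisiae* replicate 2, lay within the range at 15 min. *PEX11* fell by 0.59 on the log2 scale (SE 0.0724), 1.5-fold (adjusted p = 2.553e-07). Without that array its response was −0.62 ± 0.0711 (SE).

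*PEX25*, a related protein with a role in the regrowth of peroxisomes, ran from 0.03 through 0.21 to 0.35 at 0 min and from −0.32 through −0.17 to 0.13 at 15 min. The overlap came from the *S. paradoxus* allele, whose replicates read 0.19, 0.23 and 0.03 at 0 min and 0.13, 0.06 and −0.27 at 15 min. *PEX25* fell by 0.35 on the log2 scale (SE 0.0522, adjusted p = 3.528e-06), and with the *S. paradoxus* allele taken singly it was not past the test (−0.18 ± 0.104 SE, adjusted p = 0.1464).

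The responses were next read with each allele. With the *S. cerevisiae* allele 27 of the 37 genes rose and 3 fell (29% and 29.4% of all genes), and without the array against its label 26 rose and 3 fell (27.5% and 27.7% of all genes). With the *S. paradoxus* allele 27 rose and 2 fell (30.3% and 29.7% of all genes). With the C.P. chimera 26 rose and 3 fell (29.3% and 29.3% of all genes), and with the P.C. chimera 26 rose and 3 fell (28.7% and 28.6% of all genes). Past the test with every allele were 26 genes that rose (22.6% of all genes) and 2 that fell (22.4% of all genes). The sign of the response was the same with the 4 alleles in 34 of the 37 genes, including all 32 past the test in the mean. The median response of the 37 genes was 0.85 with *S. cerevisiae* (0.89 without that array), 0.66 with *S. paradoxus*, 0.78 with C.P. and 0.69 with P.C., and these medians were not tested against each other.

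Differences between alleles were not past the test in limma in any of the 37 genes. They were not small in every gene: in *PEX11* and *PIP2* the difference between full length alleles in response was large beside the mean response. The F-test over the means of the alleles in limma called 0 genes of the 37 (0.0737% of all genes), with 3 at an unadjusted p under 0.05 (*FAA1*, *POX1* and *PEX18*, where 5.9% of all genes were) and a smallest adjusted p of 0.5754. The F-test over the responses called 0 of the 37 (0% of all genes), 0 at an unadjusted p under 0.05 (5.35% of all genes), with a smallest adjusted p of 0.9147. By the analysis of variance that the methods describe, at an unadjusted p under 0.01, the counts were 2 and 3 of 37 (12.1% of all genes in each test). That analysis takes each feature as an observation, so that 2 features on the same array count as separate, while limma had 1 value per array. Its counts are thus not like those of limma in more than the limit on p. The contrast of *S. paradoxus* minus *S. cerevisiae* called 0 genes at 0 min (0% of all genes), 0 at 15 min (0.0491%) and 0 in response (0%), with 1, 1 and 3 genes at an unadjusted p under 0.05 (2.85%, 8.57% and 9.6% of all genes). The methods' analysis of variance gave 0, 1 and 4 genes (4.13%, 11.4% and 12.8% of all genes).

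*FAA4* had the smallest p in the difference of response with all arrays, and *POT1* had it without the array against its label. In *FAA4* the difference was −0.57 ± 0.233 (SE) for *S. paradoxus* minus *S. cerevisiae*, that is, a larger fall with *S. paradoxus* (−2.31 against −1.74), with an adjusted p of 0.4963, and −0.56 ± 0.253 (SE, adjusted p = 0.8104) without that array. In *FAA1*, which rose less with *S. paradoxus*, the difference was −0.49 ± 0.240 (SE, limma adjusted p = 0.52), and −0.54 ± 0.259 (SE, adjusted p = 0.8104) without that array. *PEX11* fell more with *S. paradoxus*, like *FAA4*, by −0.46 ± 0.205 (SE, adjusted p = 0.5033), and by −0.34 ± 0.207 (SE, adjusted p = 0.8138) without that array. *PIP2* had a response of 0.93 with *S. cerevisiae* and 0.47 with *S. paradoxus*, a difference of −0.45 ± 0.214 (SE, adjusted p = 0.5178), which was −0.42 ± 0.232 (SE, adjusted p = 0.8138) without it. Without that array limma called 0 of the 37 genes in any allele or region contrast. At 0 min, in response and in allele by time there were 2, 2 and 1 genes at an unadjusted p under 0.05 (2.38%, 6.02% and 4.67% of all genes). *PEX11* and *PIP2* were then no longer among those at an unadjusted p under 0.05.

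*POT1* depends on the array that went against its label. At 0 min its replicates with the *S. cerevisiae* allele were −0.74, −1.51 and −0.43, where replicate 2 is that array, and with the *S. paradoxus* allele they were −1.46, −1.31 and −1.38. Replicate 2 of *S. cerevisiae* thus read like the *S. paradoxus* arrays and apart from the other 2 arrays of its group. At 15 min the values were 0.63, 0.27 and 0.12 with *S. cerevisiae* and 0.57, 0.43 and 0.60 with *S. paradoxus*. The response was larger with *S. paradoxus* by 0.69 ± 0.396 (SE, adjusted p = 0.5817), and by 0.996 ± 0.374 (SE, adjusted p = 0.7257) without that array. Over the 37 genes, leaving it out gave 29 genes that rose and 3 that fell, with a median response of 0.78, and moved a mean response by at most 0.0771.

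The 4 alleles also separate the 5′ noncoding from the coding region. The contrast of coding regions called 0 of the 37 genes (0.0491% of all genes), and that of 5′ noncoding regions 0 (0%), each with 0 at an unadjusted p under 0.05 (1.92% and 1.01% of all genes). The full length alleles minus the chimeras, the interaction of the regions, called 0 of the 37 (0.0246% of all genes), with 6 genes at an unadjusted p under 0.05 where 14.5% of all genes were. The methods' analysis of variance, as run here, reads these 3 contrasts only in genes past its allele test, which were 2 of the 37. The methods' model for such genes has no term for time, so that the response counts as error. For genes past the allele by time test the methods add time to the region model, and that fit was not run here. The model without time called 0 genes (2.65% of all genes in the interaction), a count that could hardly have been higher and adds no separate evidence. *FAA1* had the smallest p, with a mean over both times that was lower in the full length alleles by −0.31 ± 0.0847 (SE, adjusted p = 0.1477). With the dye as a term in the fit, the same difference had an SE of 0.0541 and an adjusted p of 0.01236, where 1.25% of all genes were called. Without the array that went against its label, which enters the full length mean, the difference was −0.33 ± 0.0890 (SE, adjusted p = 0.1596).

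The dyes were taken as a technical batch, since every group holds both. On the 16 Cy3 arrays the median response of the 37 genes was 0.77, and on the 8 Cy5 arrays it was 0.70. The response had the same sign within each dye in 36 of the 37 genes, including all 32 past the test, and differed in sign in *DCI1* (−0.07 on Cy3 and 0.17 on Cy5). *SPS19* had 1.97 on Cy3 and 1.57 on Cy5, *POX1* 1.68 and 1.35, and *FAA4* −1.86 and −1.93.

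**Figure D4:**
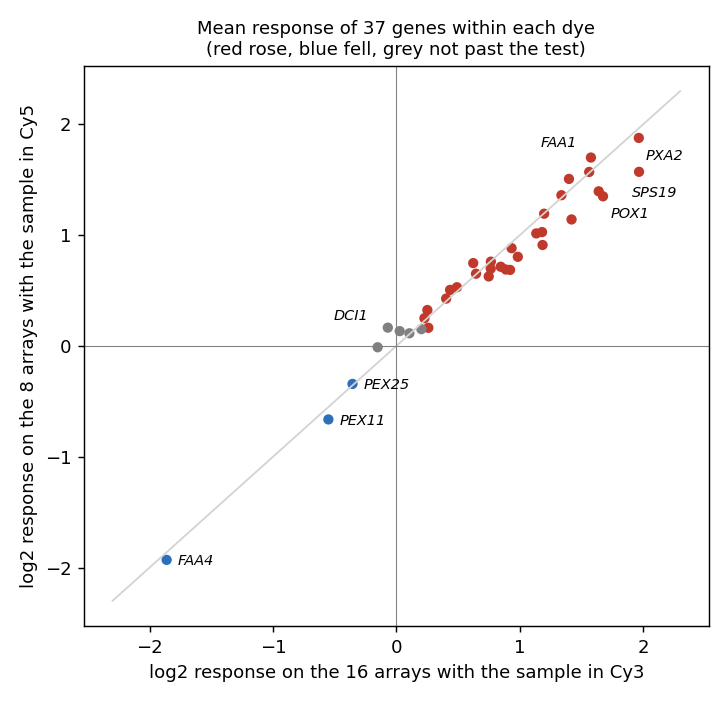
Mean response (log2, 15 min minus 0 min) of the 37 genes on the 16 arrays with the sample in Cy3 and on the 8 arrays with the sample in Cy5, with the line of equality. The points past the test (red rose, blue fell) lie in the quadrants of equal sign, and *DCI1* lies near 0 in another.

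Other genes of the organelle and of fatty acid metabolism were read from lists of 48 genes, 36 of which were tested. Of these 19 rose and 8 fell, where 39.5% and 39.6% of all genes did, with a median response of 0.21. The lists below are small, and counts in them are to be read against these shares. Among 10 further matrix enzymes 7 rose and 1 fell. *STR3*, a peroxisomal cystathionine beta-lyase of methionine synthesis, ran from −2.11 to −1.53 at 0 min and from −0.07 to 1.25 at 15 min, a response of 2.50 ± 0.113 (SE). *PNC1*, the nicotinamidase that enters peroxisomes together with Gpd1, rose by 2.08 ± 0.101 (SE). These were larger than any response among the 37 genes, and neither gene acts in beta-oxidation. *CTA1*, the peroxisomal catalase that removes the peroxide made by Pox1, fell by 0.25 on the log2 scale (SE 0.113, adjusted p = 0.04715), with overlapping ranges (−0.39 to 0.85, and −0.34 to 0.15). *NPY1*, a peroxisomal NADH diphosphatase, had a response of −0.01 ± 0.0534 (SE, adjusted p = 0.909).

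Of 7 genes of organelle inheritance, division and turnover, 4 rose and 1 fell. *MSP1*, an ATPase that removes mistargeted proteins from the outer membrane of mitochondria and peroxisomes, rose by 1.44 ± 0.0685 (SE), and the fission factor *FIS1* by 0.81 ± 0.0856 (SE). The fission adaptor *MDV1* fell by 0.15 on the log2 scale (SE 0.0603, adjusted p = 0.02816). *ATG11*, needed for selective autophagy of peroxisomes, had a response of −0.10 ± 0.0495 (SE, adjusted p = 0.07507).

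Of 8 other genes of fatty acid activation, uptake and carnitine, 3 rose and 3 fell, close to the shares of all genes. *AGP2*, a regulator of carnitine uptake at the plasma membrane, rose by 1.78 ± 0.0945 (SE), and the carnitine acetyltransferase gene *YAT2* by 1.26 ± 0.107 (SE). *FAA3*, another acyl-CoA synthetase gene, fell by 1.11 on the log2 scale (SE 0.0795), from a range of 0.16 to 0.91 to one of −0.97 to −0.23. *HNM1*, the choline transporter, fell by 1.39 on the log2 scale (SE 0.117). In these and in *FAA4* the times did not overlap.

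Of 7 other regulators of oleate induced and glucose repressed genes, 3 rose and 2 fell, again close to the shares of all genes. *CAT8*, an activator of genes for growth without glucose, rose by 0.72 ± 0.0719 (SE), and *SPT23*, an activator of the fatty acid desaturase gene, by 0.47 ± 0.0545 (SE). *MIG1*, the glucose repressor, fell by 0.60 on the log2 scale (SE 0.0692), and *MGA2*, a relative of *SPT23*, by 0.35 (SE 0.0618). Of 4 genes of triacylglycerol and sterol ester storage, *DGA1* rose by 0.76 ± 0.0412 (SE) and *ARE2* by 0.39 ± 0.0994 (SE). *LRO1* fell by 0.51 on the log2 scale (SE 0.0567), and *ARE1* had a response of −0.06 ± 0.114 (SE, adjusted p = 0.6433). In none of the 36 genes did the F-test over alleles in limma pass, and the smallest adjusted p among them was 0.4734, in *MLS1* and *ARE2*.

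**Figure D5:**
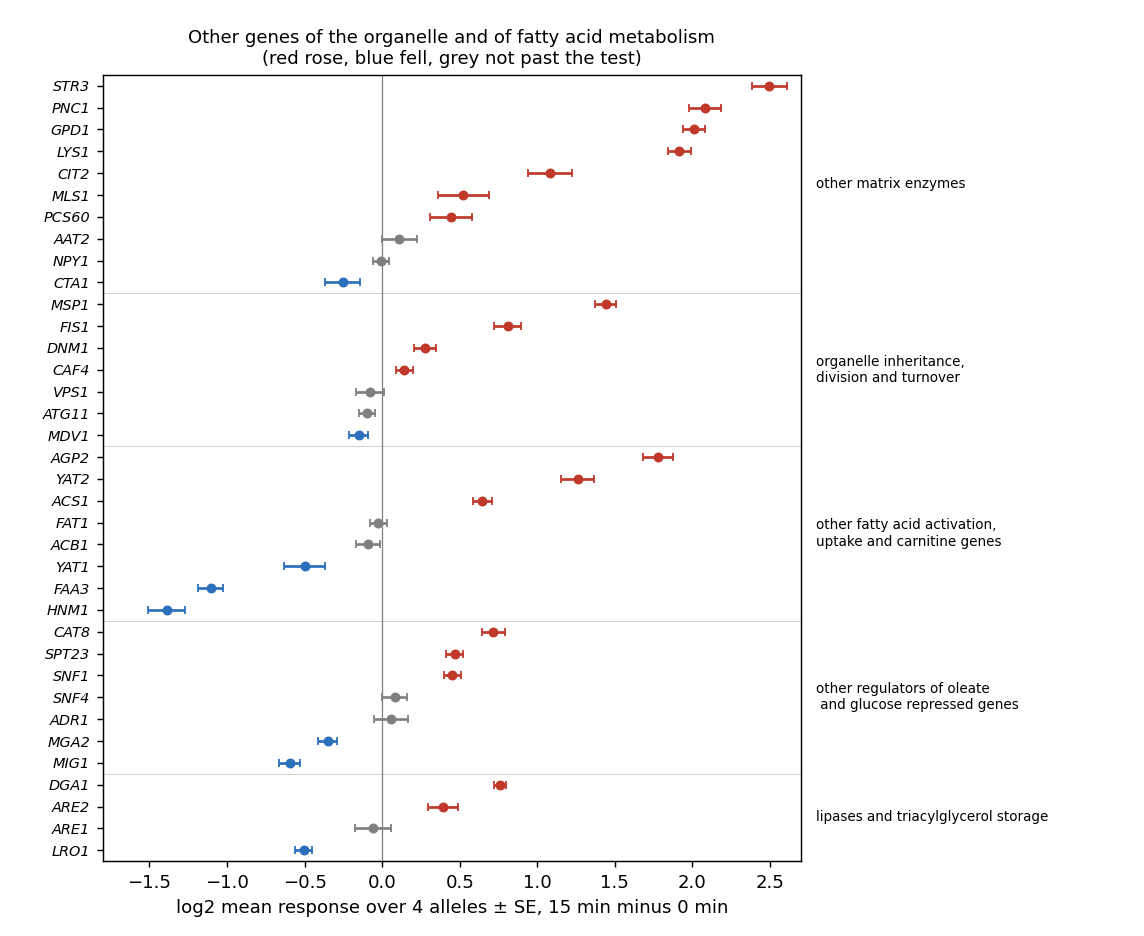
Mean response over 4 alleles (log2, 15 min minus 0 min, ± SE from limma) of 36 other genes of the organelle and of fatty acid metabolism, by list. The responses run from −1.39 (*HNM1*) to 2.50 (*STR3*), and 9 genes drawn in grey were not past the test.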

How the data were processed

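RNA of 24 samples was measured on 2-colour Agilent yeast V2 arrays. The log2 values were used as deposited by the authors, who set each sample over a pool and median normalized each array. The background correction and the filter behind empty features are not given in the sources used here. Values were matched to the probe list by grid position, since those of 1 gene had a median correlation of −0.00641 under equal numbers and of 0.928 by position. This match rests on the data. Of 15744 features, 8152 carried 1 symbol and 7592 none. The direction was read from arrays of 1 group with opposite dyes, which correlated above 0 (median 0.767, 16 pairs).

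Features were averaged per gene, arrays centred on the median of their genes (moved by −0.0573 to 0.0804), and limma 3.58.1 in R 4.3.3 fitted to 8 group means of 4071 genes, each measured on 2 or more arrays per group, without a block. P values were adjusted by Benjamini-Hochberg over all genes, with a limit of 0.05. The number of arrays limits the precision, and SE are those of limma. Cultures were sampled over time per the methods, but the labels do not tie replicate numbers to cultures. Same-numbered arrays of an allele at 0 and 15 min deviated with a median correlation of 0.402 (other numbers −0.159), from 0.413 to 0.763 in the full length alleles and from −0.466 to 0.392 in the chimeras. Replicate 3 was the Cy5 array in every group but P.C. at 15 min, so that number and dye largely coincide. Equal numbers also correlated between different alleles within a time (median 0.34, other numbers −0.188), where no culture is shared. These correlations therefore cannot tell a shared culture from the dye. Deviations from the mean of 3 arrays also sum to 0. Equal numbers above 0 thus push other numbers below it, so that the latter are no separate evidence. As not every pair was above 0.1, numbers were not taken as pairs, and fits with culture as a block (correlation 0.329) were alternatives.

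The 37 genes, the role groups and the lists of other genes were chosen with earlier results of these data known. Values by array, in the text or as the lowest, median and highest of 12 arrays and in a plot, are given for the 8 highest and 6 lowest responses, the 4 smallest p in each F-test, the 3 largest differences between full length alleles, *OAF1*, *PIP2* and *POT1*. Of other lists the 2 highest and 2 lowest responses are given. *PEX5*, *PEX7*, *PEX3*, *IDP3* and further genes given by ranges fill the role groups. Python 3.11.15, pandas 2.3.3 and matplotlib 3.10.9 served for tables and plots.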

Additional observations from a re-analysis of the deposited data

How the results depend on the processing

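The responses changed little with the processing. Over all alternatives run, 27 to 30 of the 37 genes rose and 3 to 4 fell, and the median response ran from 0.70 to 0.84. Ratios to a pool limit the data to differences between arrays.

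Counts of genes that differ between alleles moved with array weights and with which arrays entered. A dye term by itself left them at 0 except in the interaction of regions. The Cy3 arrays alone also leave 2 arrays a group, and dye with weights changes both. The allele effect was called in 2 genes with array weights (10.2% of all genes), 1 on the Cy3 arrays alone (4.27%), 2 with dye and weights together (16.2%), and 2 by the methods' analysis of variance. Allele by time gave 1 gene with array weights (3.32% of all genes), 4 with dye and weights (14.3%), and 3 by the analysis of variance. The full length alleles at 15 min gave 9 genes with array weights (26.7% of all genes) and 1 on Cy3 arrays (4%). They gave 7 with dye and weights (23.4% of all genes) and 1 by the analysis of variance. In response they gave 2 (5.04% of all genes), 4 (16.3%) and 4 genes with array weights, with dye and weights, and by the analysis of variance. The interaction of regions gave 1 gene with a dye term, 4 with array weights (13.1% of all genes), 6 on Cy3 arrays (12.5%) and 7 with dye and weights (19.1%). The cause of these differences was not tested. Dye with weights was chosen after the data were seen, as were weights fitted gene by gene. Leaving out single arrays or replicate numbers gave 0 to 2 genes for the allele effect and 0 to 9 for the interaction, the highest of both without replicate 3 (5.72% and 18.2% of all genes), which leaves all groups but P.C. at 15 min with Cy3 arrays.

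The replicate number as a block gave 29 genes that rose and 3 that fell (82.5% of all genes in either direction). It gave 1 gene in the interaction (*FAA1*, limma adjusted p = 0.04818, where 0.344% of all genes were called). The block by allele and number gave 29 and 3 genes and 0 in the interaction, and neither block changed another count by over 1.5 times. Of the 12 arrays at 0 min, 7 correlated best with the array of their own number at 15 min. This is a description in which number and dye largely coincide. The methods sample cultures over time, and the labels do not say that numbers mark them.

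Among the genes given by array, *DCI1* had a response of −0.0322 without further centring, −0.0581 with array weights, −0.0693 on Cy3 arrays and −0.0482 with dye and weights, and −0.0248 to 0.0630 with arrays or numbers left out. *PEX19* ran from −0.0196 to 0.205 with arrays or numbers left out. Neither was past the test. *PEX6* passed it, below 0, under 7 alternatives (−0.16 to −0.14).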
